A study of Mus musculus with 4 samples.

Results

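The proteins that carry cargo through the nuclear pore, and the Ran GTPase cycle that gives this traffic its direction, were followed as transcripts in mouse hematopoietic progenitors. The 32 genes were picked by their symbols. They are 5 importin alpha adaptors (Kpna1, Kpna2, Kpna3, Kpna4 and Kpna6), 11 import receptors of the importin beta family (Kpnb1, Tnpo1, Tnpo2, Tnpo3, Ipo4, Ipo5, Ipo7, Ipo8, Ipo9, Ipo11 and Ipo13), 7 exportins (Xpo1, Xpo4, Xpo5, Xpo6, Xpo7, Xpot and Cse1l), the mRNA export receptor pair Nxf1 and Nxt1, and 7 genes of the Ran cycle (Ran, Rangap1, Ranbp1, Ranbp3, Rcc1, Nutf2 and Rangrf). All 32 were found among the 27998 genes of the count tables, and each passed the filter on low counts when all cells of a library were summed.

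LSK cells, the Lin-Sca1+cKit+ fraction of bone marrow that holds stem cells and multipotent progenitors, were profiled by droplet single-cell RNA sequencing in 4 libraries. All mice carried Nup358 fl/fl. Those of the 2 control libraries, called wild-type in the labels, had no Cre, and those of the 2 Nup358 knockout libraries had R26-CreERT2, a tamoxifen-regulated Cre expressed from a ubiquitous locus. Tamoxifen was given to both genotypes on 3 consecutive days, and the mice were 9 to 12 weeks old. Each library was a pool of 3 bone marrows, so each genotype rests on 6 mice and 2 libraries. Because the Cre acts in all tissues, the LSK cells were taken from marrow in which other cells could have lost the gene too. Cre itself and the loss of Nup358 cannot be told apart in these libraries.

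Import receptors bind cargo in the cytoplasm and release it in the nucleus when Ran-GTP binds them, whereas exportins load cargo together with Ran-GTP and release it when the GTP is hydrolyzed. Rcc1 sits on chromatin and charges Ran with GTP, and Rangap1 with Ranbp1 drives hydrolysis on the cytoplasmic side, so that the nucleus stays rich in Ran-GTP. Nup358, encoded by Ranbp2, forms the cytoplasmic filaments of the pore, binds Ran and anchors Rangap1 there. The same Ran gradient guides spindle assembly after the nuclear envelope breaks down in mitosis.

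Promoters of Kpna2, Ranbp1, Ran and Kpnb1 are shown so that their motifs can be read beside the values, and those of other members named below are not. RefSeq promoters (build GRCm38.p6, the 250 bases before a start site, read 5′ to 3′ on the strand of the gene) were matched by symbol to 25 of the 32 members, and no entry was matched for Kpna1, Kpna3, Kpna6, Xpo4, Xpo7, Cse1l and Ranbp3. The capitals mark every match, on either strand, to the letters of the cell cycle homology region TTTGAA, the CCAAT box CCAAT, the E-box CACGTG, the E2F motif TTCCCGCC and the palindromic NRF1 consensus. Kpna2 lies on the minus strand of chr11 with its promoter at chr11:106999526-106999775, Kpnb1 on the minus strand at chr11:97187893-97188142, Ranbp1 on the minus strand at chr16:18248695-18248944 and Ran on the plus strand at chr5:129019906-129020155.
Kpna2: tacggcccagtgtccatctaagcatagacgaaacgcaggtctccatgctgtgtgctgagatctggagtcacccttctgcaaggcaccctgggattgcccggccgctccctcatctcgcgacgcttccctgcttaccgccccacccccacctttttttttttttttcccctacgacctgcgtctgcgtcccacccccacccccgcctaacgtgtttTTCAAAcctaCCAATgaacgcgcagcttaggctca
Ranbp1: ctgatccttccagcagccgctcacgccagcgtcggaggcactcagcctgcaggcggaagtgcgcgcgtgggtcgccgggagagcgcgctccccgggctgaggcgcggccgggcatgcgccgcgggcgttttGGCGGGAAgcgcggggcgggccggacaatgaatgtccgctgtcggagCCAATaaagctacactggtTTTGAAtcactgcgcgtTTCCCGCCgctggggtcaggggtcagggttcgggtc
Ran: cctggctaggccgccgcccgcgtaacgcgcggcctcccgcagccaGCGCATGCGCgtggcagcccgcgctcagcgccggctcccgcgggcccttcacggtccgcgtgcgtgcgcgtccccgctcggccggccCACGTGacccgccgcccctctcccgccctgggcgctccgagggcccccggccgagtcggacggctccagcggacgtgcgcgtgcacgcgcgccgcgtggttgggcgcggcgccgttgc
Kpnb1: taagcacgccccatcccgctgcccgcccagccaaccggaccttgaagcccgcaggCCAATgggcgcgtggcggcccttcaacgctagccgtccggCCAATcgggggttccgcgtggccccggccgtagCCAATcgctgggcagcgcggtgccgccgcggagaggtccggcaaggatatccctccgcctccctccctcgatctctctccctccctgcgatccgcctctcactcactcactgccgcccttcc

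The Kpna2 promoter holds TTCAAA, the reverse complement of the homology region, at position -35 from the start and CCAAT at -25. The Ranbp1 promoter holds 4 matches, GGCGGGAA at -119, CCAAT at -72, TTTGAA at -53 and TTCCCGCC at -36. Ran has the NRF1 letters at -205 and an E-box at -118, and Kpnb1 has CCAAT at -195, -155 and -122. Among members not shown, Rangap1, Tnpo1, Tnpo3, Ipo8, Ipo13, Nxf1 and Nutf2 held no match. The others with a promoter entry, Rcc1, Xpo1 and Xpot among them, held a match in at least some entry. Over the members' 32 promoter entries, the homology region was found in 6 (Ipo4, Ipo7, Kpna2, Ranbp1, Rcc1 and Tnpo2) against 16.0% of all 32851 promoters, and a CCAAT box in 13 against 33.8%. An E-box was found in 4 entries against 6.02%, the NRF1 letters in 2 (Ran and Xpo5) against 0.782%, and the E2F letters in 1 (Ranbp1) against 1.86%. The shares were not tested, and a match describes the letters of this window, not a bound site.

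The libraries held between 25111828 and 60330267 unique molecular identifiers (UMIs), each of which stands for 1 captured transcript. Of the 25242 deposited barcodes 24973 were kept, 9198 and 6793 in the control and 4749 and 4233 in the Nup358 knockout libraries, and their median UMIs were 5333, 1036, 1090.0 and 12026. Many barcode sequences were shared between libraries, and 10936 deposited barcodes (43.3%) reappeared elsewhere with their UMIs 3 or more times higher. These copied barcodes made up 81.8% of control replicate 2 and 65.3% of Nup358 knockout replicate 1, but 14.8% of control replicate 1 and 18.8% of Nup358 knockout replicate 2. They were shallow and held between 1.61% and 24.7% of a library's kept UMIs. The other library can be of the same or of the other genotype. Whether copied barcodes carry RNA of that library was not tested, so the libraries may not be fully separate. Results are given with copied barcodes, and the calls of the 32 genes that changed without them are named. Doublets were not removed. Ranbp2 transcripts were at 127, 109, 121 and 125 CPM (UMIs of a gene per 1000000 UMIs of the library) in control replicates 1 and 2 and knockout replicates 1 and 2. These 3′ counts do not read the deleted exon 2 and so do not check the genotype labels.

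Levels are given in CPM, scaled by the trimmed mean of M-values within each fit, so that the same library can differ slightly between comparisons. A 3′ UMI counts molecules whatever the transcript's length, and levels of different genes are set side by side without a length correction. Values for 4 libraries are in the order control replicate 1, control replicate 2, Nup358 knockout replicate 1 and Nup358 knockout replicate 2.

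Ran, the GTPase itself, was the most abundant of the 32 transcripts, at 1451, 1275, 1512 and 1681 CPM over all LSK cells. Ranbp1, the cofactor of Ran-GTP hydrolysis, followed at 679, 636, 769.8 and 814 CPM. Ran alone held 36.6% and Ranbp1 17.9% of the summed mean level of the 32. The lowest library of each lay above the highest library of the next gene in the order. Nxf1, which carries mRNA through the pore without Ran, came next at a mean of 162 CPM, ahead of Kpnb1 at 141, Rangap1 at 125 and Nxt1 at 106. From Nxf1 to Nutf2, the gene with the lowest mean, every gene overlapped the next in the order over the 4 libraries. The exportins ran from Xpo1, the general exporter of proteins with a leucine-rich signal, at a mean of 102 CPM to Xpo5, which exports microRNA precursors, at 14.1 CPM. Among the importin alpha genes Kpna4 had a mean of 92.2 and Kpna3 of 68.6 CPM, and Kpna2 and Kpna6 had means of 17.5 and 17.3 CPM. Ran cycle transcripts summed to 2443, 2163, 2626 and 2882 CPM, import receptors to 785, 735, 1017 and 1070.3 CPM and export receptors to 593, 524, 645 and 696 CPM.

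**Figure D1:**
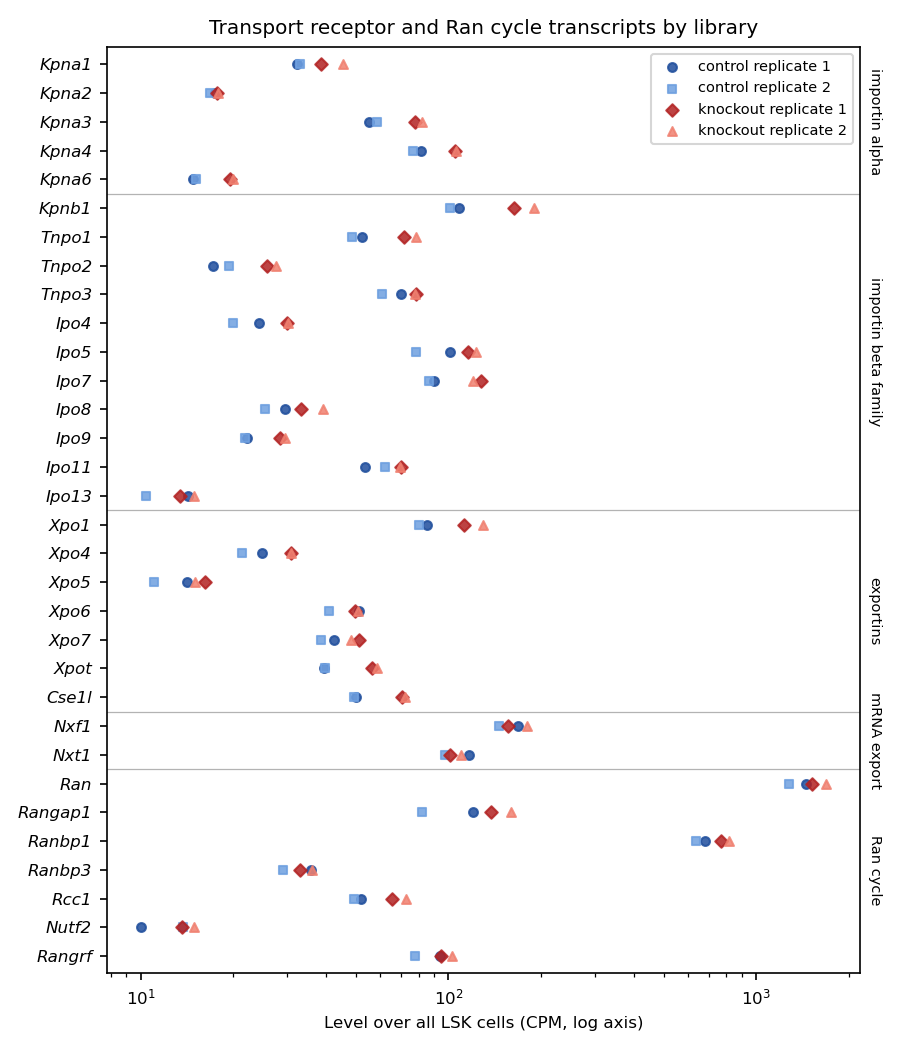
Level of each of the 32 transcripts over all LSK cells (x axis, CPM on a log axis) in the 4 libraries, grouped by role. Ran and Ranbp1 stand to the right of all other genes in every library, and for most import receptors both knockout symbols lie to the right of both control symbols.

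Some counts may hold reads of other loci or lack reads shared with them. The last 500 bases of Kpna2 match those of Gm10184 without a mismatch, and Gm10184 had 282 UMIs against 3096 for Kpna2. The 3′ ends of Nutf2 and Nutf2-ps1 match likewise, with 2263 and 93 UMIs. The 3′ end of Rangrf overlaps Slc25a35 (16690 against 272 UMIs) and that of Tnpo3 overlaps Irf5 (12910 against 856 UMIs), on opposite strands, while Xpo7 shares exonic bases with Npm2 on its own strand. Ends of Ipo4, Tnpo1, Xpo4 and Xpot match Gm49378, Gm6493, Gm17873 and Gm7389 at 100%, 97.5%, 99.0% and 97.7% identity. These loci are not among the counted genes. Shorter matches to other loci were found for Ranbp1, Rangap1 and Rcc1. How reads of such loci were divided is not given in the sources used here, and values of all these genes are uncertain to that extent. The loci matching Kpna2 and Nutf2 without a mismatch were counted as separate genes. The low levels and ranks of Kpna2 and Nutf2 could therefore be too low as well as too high.

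Cell cycle classes were compared within each library to ask how transport transcripts follow proliferation. Cells with at least 1000 UMIs (17882) were thinned to 1000 UMIs and classed by UMIs of S phase and G2/M phase genes, none of which is among the 32. The S class held 3626 cells and the G2/M class 9639, each with at least 4 UMIs of its own list and more than of the other, and 851 cells with at most 1 UMI of both lists formed the neither class. UMIs of both lists were compared without scaling. Over all LSK cells the 53 G2/M genes summed to 7741, 6275, 7152 and 8163 CPM. The 43 S genes summed to 3814, 3438, 4032 and 4047 CPM. Cells of other phases can therefore fall in the G2/M class, and the classes are not measured phases. The limits cut through a range, since 5041 cells had 3 or 4 S phase UMIs and 2980 had 3 or 4 G2/M phase UMIs. In the G2/M class 19 of 32 members were higher than in the neither class and no member fell, beside 24.8% of all 11932 genes tested that were higher. In the S class 17 were higher and none fell, beside 23.0% of all genes. The median log2 fold change of the 32 was 0.49 in G2/M and 0.52 in S, while the median of all genes was -0.03 and -0.01. A member is said to be higher or lower, here and below, where the adjusted p was under 0.05 (quasi-likelihood test of edgeR with a library term, Benjamini-Hochberg adjustment over all genes), and values after ± are standard errors of the log2 fold change.

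The Ran cycle moved most. Its 7 transcripts summed to 953, 967, 1093 and 952 CPM in the neither class, to 2553, 2469.9, 2670.4 and 2803 CPM in S and to 2722, 2566, 2801 and 3074 CPM in G2/M, so that no library of the cycling classes overlapped the neither class. Ran and Ranbp1, given below, made up most of each of these sums. In G2/M 6 of the 7 genes were higher, with a median log2 fold change of 1.48 over the 7, and in S 5 were. Rangap1, the GTPase activator, was at 36.6, 28.5, 39.9 and 43.1 CPM in the neither class, 97.4, 64.2, 109.6 and 125 CPM in S and 151, 115, 164 and 182 CPM in G2/M. Its log2 fold change was 2.02 ± 0.10 in G2/M (adjusted p = 7.18e-09) and 1.38 ± 0.10 in S (adjusted p = 2.30e-07). In all 4 libraries the G2/M class was the highest of the 3.

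Rcc1, the exchange factor on chromatin, was at 21.7, 16.1, 24.7 and 12.7 CPM in the neither class, 55.8, 53.8, 61.7 and 69.1 CPM in S and 58.5, 62.0, 73.4 and 79.0 CPM in G2/M, a log2 fold change of 1.75 ± 0.13 in G2/M (adjusted p = 3.69e-07). Ran was at 536, 528, 631 and 561 CPM in the neither class and rose to 1491, 1424, 1516 and 1619.7 CPM in S and 1631, 1533, 1612 and 1800.0 CPM in G2/M, which is 1.54 ± 0.06 in G2/M (adjusted p = 1.88e-09). Ranbp1 was at 252, 283, 323 and 259 CPM in the neither class, 769.6, 801, 838 and 844 CPM in S and 733, 732, 802 and 851 CPM in G2/M, a change of 1.48 ± 0.07 in G2/M and 1.54 ± 0.07 in S (adjusted p = 8.30e-09 and 8.05e-09). None of these 3 overlapped between the neither class and either cycling class. Ranbp3, a cofactor of Xpo1, changed less, from 25.2, 21.1, 30.4 and 33.0 CPM to 37.9, 35.2, 35.7 and 41.4 CPM in S (0.56 ± 0.12, adjusted p = 0.00281) and 38.1, 30.6, 33.4 and 36.1 CPM in G2/M (0.44 ± 0.12, adjusted p = 0.00889). Rangrf, which binds Ran and promotes nucleotide release, was higher in G2/M, at 99.9, 80.4, 102 and 109.9 CPM against 76.1, 73.2, 43.7 and 35.5 CPM (0.58 ± 0.16, adjusted p = 0.00949). In S its change of 0.41 ± 0.16 did not pass. The classes of Rangrf differ little in the controls and widely in the knockout libraries, which is taken up below. Nutf2, which returns Ran-GDP to the nucleus, did not pass in either class (0.54 ± 0.36 in G2/M).

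Among the importin alpha adaptors, which bind classical nuclear localization signals, Kpna2 had the largest change of the 32. It was counted with 2, 4, 0 and 1 UMIs in the neither class (1.14, 2.48, 0 and 2.54 CPM), and the 0 of 503352 UMIs in Nup358 knockout replicate 1 allows up to 5.96 CPM before scaling, counting error alone considered. In S it was at 6.80, 8.58, 8.34 and 6.56 CPM and in G2/M at 25.8, 30.4, 24.8 and 22.9 CPM. The fitted log2 fold changes were 4.04 ± 0.29 in G2/M (adjusted p = 2.03e-07) and 2.25 ± 0.38 in S (adjusted p = 0.000367), and their size rests on these few UMIs. Kpna3 rose as well, from 33.8, 32.9, 45.6 and 30.5 CPM to 66.7, 71.9, 96.3 and 93.6 CPM in S and 54.8, 63.6, 75.2 and 84.3 CPM in G2/M (0.88 ± 0.11, adjusted p = 2.39e-05). Kpna4 changed from 79.0, 68.2, 74.1 and 81.2 CPM to 80.1, 81.9, 111 and 110.3 CPM in G2/M (0.28 ± 0.09, adjusted p = 0.0247) and 88.5, 81.8, 108 and 106 CPM in S (0.29 ± 0.09, adjusted p = 0.0247), and without copied barcodes neither of these calls was made, nor were those of Rangrf and Tnpo1 in G2/M (adjusted p = 0.0513 and 0.162). Kpna1 had the lowest value of the 32 in G2/M, at 31.7, 30.8, 37.3 and 44.8 CPM against 38.9, 37.2, 34.2 and 50.8 CPM (-0.21 ± 0.11), and Kpna6 one of the lowest in S, at 14.0, 13.9, 17.1 and 17.98 CPM against 15.4, 14.3, 19.0 and 15.2 CPM (-0.07 ± 0.15), and neither gene passed.

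Kpnb1, the receptor that carries these adaptors through the pore, was at 70.9, 51.5, 60.8 and 81.2 CPM in the neither class, 115, 111, 168 and 183 CPM in S and 114, 118, 175 and 203 CPM in G2/M, a log2 fold change of 1.11 ± 0.12 in G2/M (adjusted p = 5.70e-06). Ipo5, a receptor of ribosomal proteins and histones, was highest in S. It was at 43.5, 43.4, 41.8 and 48.2 CPM in the neither class, 127, 100.1, 149 and 141 CPM in S and 103, 86.1, 116 and 126 CPM in G2/M (1.48 ± 0.10 in S and 1.22 ± 0.10 in G2/M, adjusted p = 1.69e-07 and 7.36e-07). Ipo9, an importin of histones, rose from 12.01, 13.6, 11.4 and 17.8 CPM to 28.7, 26.2, 33.7 and 35.3 CPM in S (1.15 ± 0.14, adjusted p = 2.73e-05) and 22.4, 21.9, 28.4 and 29.1 CPM in G2/M (0.86 ± 0.14, adjusted p = 0.000262). Each of these 3 was higher than the neither class in every library with no overlap. Ipo7, which imports ribosomal proteins, was at 71.5, 58.3, 55.1 and 55.8 CPM in the neither class, 100.4, 108, 147 and 135 CPM in S and 91.9, 92.6, 131 and 122 CPM in G2/M (0.73 ± 0.13, adjusted p = 0.000404). Tnpo1, the receptor of several RNA-binding proteins, changed from 47.5, 37.2, 60.8 and 63.4 CPM to 57.6, 49.1, 78.9 and 89.98 CPM in S (0.39 ± 0.10, adjusted p = 0.00542) and 52.9, 52.1, 72.0 and 77.7 CPM in G2/M (0.28 ± 0.09, adjusted p = 0.026), with overlapping libraries. The other 6 receptors of the family, Tnpo2, Tnpo3, Ipo4, Ipo8, Ipo11 and Ipo13, lay between -0.08 and 0.36 in G2/M and between -0.31 and 0.48 in S, and none passed. Ipo8 and Ipo11 had negative values in both classes. Ipo11 was at 72.1, 74.4, 45.6 and 66.0 CPM in the neither class, 50.0, 51.2, 66.1 and 61.3 CPM in S (-0.31 ± 0.14) and 53.0, 67.7, 75.8 and 74.4 CPM in G2/M, and Ipo8 at 38.3, 26.04, 32.3 and 33.0 CPM, 28.0, 21.8, 32.01 and 35.0 CPM (-0.25 ± 0.13) and 30.5, 27.8, 35.1 and 41.3 CPM.

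Of the exportins, 3 were higher in both cycling classes. Xpo1 was at 45.2, 37.8, 76.0 and 99.0 CPM in the neither class, 88.3, 89.2, 123 and 143 CPM in S and 94.0, 95.5, 115 and 133 CPM in G2/M (0.91 ± 0.12, adjusted p = 5.42e-05), and its neither class levels differed between the genotypes. Cse1l, which returns importin alpha to the cytoplasm, rose from 30.9, 32.2, 28.5 and 35.5 CPM to 51.2, 55.4, 73.1 and 72.6 CPM in S and 54.4, 57.3, 77.2 and 77.7 CPM in G2/M (0.96 ± 0.10, adjusted p = 8.33e-06). Xpo4 rose from 17.7, 11.8, 17.1 and 17.8 CPM to 27.2, 23.2, 33.4 and 33.3 CPM in S (0.83 ± 0.14, adjusted p = 0.000367) and 25.8, 24.8, 31.9 and 31.0 CPM in G2/M (0.78 ± 0.14, adjusted p = 0.000438). Xpo5, Xpo6, Xpo7 and Xpot, the exporter of tRNA, had values between 0.02 and 0.38 in G2/M and did not pass. The 2 partners of the mRNA export receptor differed in size. Nxt1 rose from 52.6, 51.5, 39.9 and 38.1 CPM to 123, 114, 111 and 124 CPM in S (1.31 ± 0.10, adjusted p = 3.18e-07) and 128, 110.2, 103 and 111 CPM in G2/M (1.25 ± 0.10, adjusted p = 3.60e-07), without overlap. Nxf1 was at 158, 137, 118 and 119 CPM in the neither class and 174, 154, 164 and 193 CPM in G2/M (0.32 ± 0.09, adjusted p = 0.0121), with overlap, and did not pass in S (0.19 ± 0.09).

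**Figure D2:**
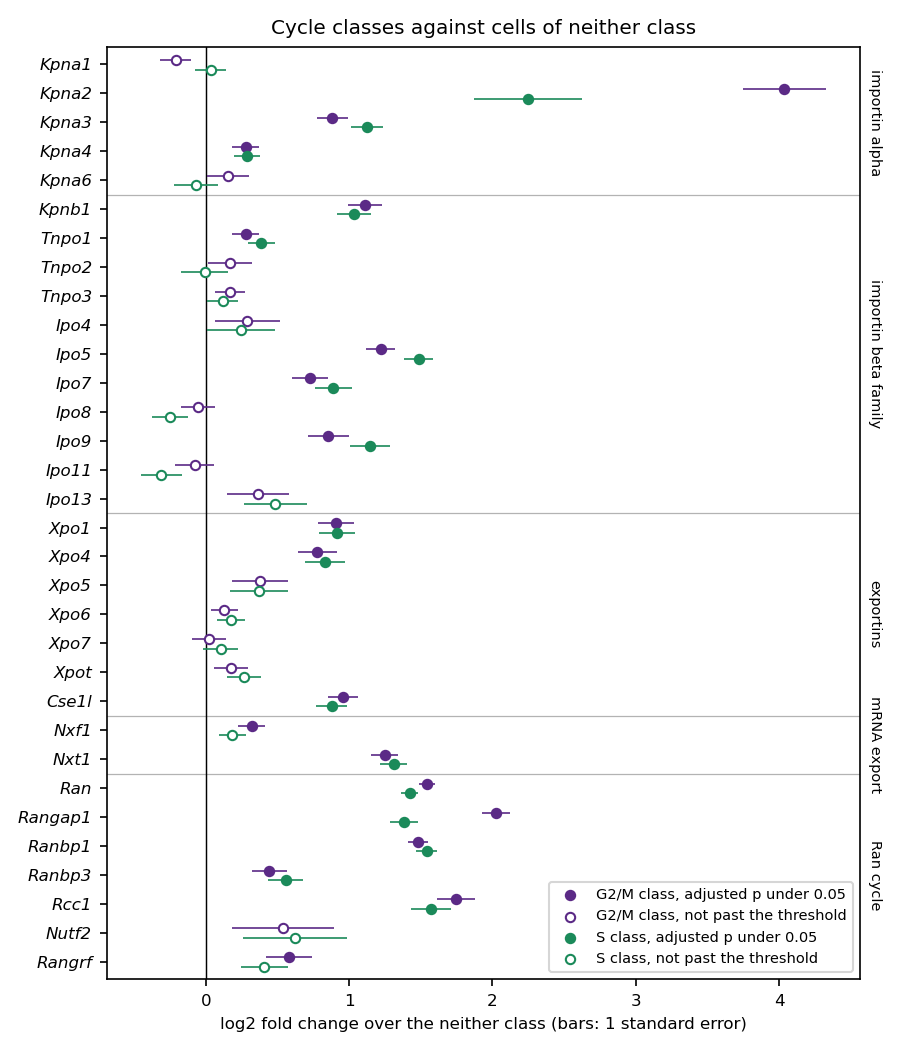
Log2 fold change (x axis) of the G2/M and S classes over the neither class for the 32 genes, with bars of 1 standard error and filled symbols where the adjusted p was under 0.05. The 4 Ran cycle genes Ran, Rangap1, Ranbp1 and Rcc1 and the adaptor Kpna2 lie above 1 in both classes, and Kpna1, Ipo8 and Ipo11 lie near or below 0.

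The neither class was small and mixed. It held 485, 166, 114 and 86 cells, of which 33.6%, 28.9%, 8.77% and 18.6% passed the stem cell gate described next and 0.206%, 0.602%, 22.8% and 22.1% the B-lineage gate. In unprimed cells only, a restriction added after the data were seen, 16 members were called higher in G2/M and 17 in S, beside 17.1% and 16.2% of all 11261 genes, and the changes of Ran, Ranbp1, Rangap1 and Kpna2 in G2/M were 1.26, 1.16, 1.77 and 3.35. Of the calls above, Nxf1, Ranbp3, Rangrf and Tnpo1 did not pass there in G2/M, nor Ranbp3 in S.

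Lineage priming was asked next, with marker gates in place of the clusters of the study. A cell was put in a type when at least 2 genes and 3 UMIs of a marker list reached a set share of its UMIs, cells that met 2 gates were left out, and cells that met none were called unprimed. The limits of the gates were set after marker totals had been seen, and none of the 32 genes is a marker. The gates held 3900 neutrophil-primed, 1579 stem-like (Hlf, Mecom, Procr and others), 581 lymphoid-primed, 511 B-lineage, 373 megakaryocyte-primed, 332 erythroid-primed, 203 monocyte or dendritic and 74 basophil or mast cells beside 17000 unprimed cells. Shallow barcodes can miss the gates and then count as unprimed. Of the unprimed barcodes 966 of 5610, 2130 of 4769, 1758 of 3640 and 400 of 2981 had fewer than 1000 UMIs. With the gates applied to cells thinned to 1000 UMIs, 357 cells were stem-like. Each type was compared with the unprimed cells of the same libraries in a fit over 11043 genes.

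Stem-like cells had lower levels of Ran cycle transcripts than unprimed cells. Of the 32 genes 12 were lower in them and 1 was higher, beside 37.3% of all genes called, with 16.1% of all genes lower and 21.3% higher. The share of members called was near the background. Rcc1 was at 43.8, 48.6, 68.1 and 75.7 CPM in unprimed and 22.4, 19.0, 38.3 and 41.3 CPM in stem-like cells, a log2 fold change of -0.96 ± 0.12 (adjusted p = 7.37e-08). Ran was at 1301, 1290.5, 1588 and 1761 CPM in unprimed and 754, 615, 1011 and 1220.3 CPM in stem-like cells (-0.74 ± 0.12, adjusted p = 9.12e-06). Ranbp1 was at 616, 635, 809 and 856 CPM in unprimed and 340.3, 303, 548 and 591 CPM in stem-like cells (-0.73 ± 0.14, adjusted p = 8.50e-05). The stem-like level was the lower of the pair in every library for these 3 genes, and the ranges did not overlap.

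Kpna2 was also lower in stem-like cells, at 5.80, 5.35, 8.57 and 11.95 CPM against 13.3, 13.5, 18.2 and 18.2 CPM (-0.96 ± 0.23, adjusted p = 0.000983). The other genes that were lower are Rangap1 (-0.67 ± 0.13), Nxt1 (-0.56 ± 0.09), Nutf2 (-0.49 ± 0.17), Rangrf (-0.41 ± 0.12), Cse1l (-0.39 ± 0.10), Kpnb1 (-0.36 ± 0.12), Ipo7 (-0.34 ± 0.10) and Ipo5 (-0.26 ± 0.11). Ipo11, an importin of ubiquitin-conjugating enzymes, was the exception, at 59.0, 67.8, 73.3 and 74.2 CPM in unprimed and 87.9, 103, 88.2 and 89.8 CPM in stem-like cells (0.43 ± 0.11, adjusted p = 0.00168). Kpna1 (41.5, 38.0, 43.9 and 46.8 CPM, 0.17 ± 0.11) and Xpo7 (48.4, 49.3, 56.0 and 55.7 CPM, 0.11 ± 0.09) followed and did not pass. With the gates applied to cells thinned to 1000 UMIs 5 members were called, Ran, Ranbp1, Rangap1, Rcc1 and Nxt1. That fit held 8870 genes, and the share of them called is not given. Without copied barcodes Ipo5 was not called and Xpo1 was. Cycling cells were fewer among stem-like cells, and 18.6%, 21.3%, 6.13% and 6.06% of them were in the neither class against 6.01%, 3.45%, 2.82% and 1.01% of unprimed cells. Within the neither class the knockout libraries held 10 and 16 stem-like cells and were left out of the stem-like side for having fewer than 20, so that only the control libraries entered with 163 and 48. There 0 members differed in edgeR's test, beside 2.48% of all genes called, with 3 at an unadjusted p under 0.05 among the 26 tested, and DESeq2 was not run. Ran was at -0.36 and Kpnb1 at 0.00 in that comparison.

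Neutrophil-primed cells had higher levels of 7 members and lower levels of 4, beside 47.8% of all genes called, so the share called lies below the background. The Ran cycle held 5 of the 7. Ran was at 1873, 1796, 2152 and 2449 CPM against 1301, 1290.5, 1588 and 1761 CPM in unprimed cells (0.48 ± 0.12, adjusted p = 0.00105), with no overlap. Rcc1 was at 71.3, 76.8, 89.2 and 116 CPM against 43.8, 48.6, 68.1 and 75.7 CPM (0.61 ± 0.10), higher in every library but with overlapping ranges. The others were higher, Rangrf by 0.45 ± 0.11, Ranbp1 by 0.42 ± 0.14 and Ranbp3 by 0.26 ± 0.09, and Nxt1 by 0.26 ± 0.08. Kpna2 was at 26.4, 35.6, 24.1 and 25.2 CPM in neutrophil-primed cells (0.95 ± 0.15, adjusted p = 1.26e-06), above all libraries of the unprimed cells. The 4 lower genes were Ipo11 (-0.62 ± 0.11), Ipo9 (20.0, 19.4, 22.9 and 21.7 CPM, -0.33 ± 0.12), Xpo7 (37.6, 32.3, 49.4 and 38.3 CPM, -0.29 ± 0.09) and Tnpo2 (-0.28 ± 0.10). Without control replicate 2 the count of 11 became 7, and the share of all genes called there is not given. Without copied barcodes Ipo9, Tnpo2 and Xpo7 were not called, and Kpnb1, Rangap1 and Xpo5 were, and with thinned gates Ranbp3 and Tnpo2 were not. The 6 markers of mature neutrophils, none of them at 0, summed to 793, 7674, 2723 and 8592 CPM within this gate, and their part in these values was not tested. Ipo11 lay at 41.6, 41.2, 47.6 and 47.8 CPM there, the reverse of its place in stem-like cells.

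In erythroid-primed cells 8 members were higher and 1 was lower, beside 30.6% of all genes called, so the share called lies near the background. Xpo7 was at 17.5, 14.2, 40.4 and 36.4 CPM in them against 47.6, 42.2, 53.0 and 50.3 CPM in unprimed cells (-0.81 ± 0.14, adjusted p = 2.40e-05), lower in all 4 libraries without overlap. Xpo4 (35.8, 36.8, 50.1 and 37.2 CPM, 0.47 ± 0.15), Xpo6, the exporter of actin with profilin (0.43 ± 0.11) and Xpot (0.38 ± 0.15) were higher. Rangrf was at 177, 116, 116 and 185 CPM against 80.5, 80.3, 99.6 and 109.7 CPM (0.73 ± 0.13, adjusted p = 2.27e-05). Kpna1 (47.8, 45.3, 53.3 and 66.8 CPM, 0.50 ± 0.14), Rcc1 (0.47 ± 0.13), Ranbp3 (0.37 ± 0.13) and Ipo4 (0.36 ± 0.14) were higher too. Nutf2 (9.56, 14.2, 4.85 and 11.0 CPM, -0.48 ± 0.27) and Ipo11 (39.0, 45.3, 76.0 and 56.6 CPM, -0.36 ± 0.16) had the lowest values after Xpo7 and did not pass. The count of 9 fell to 3 without control replicate 1 and to 5 without Nup358 knockout replicate 2, and with thinned gates Xpo4 and Ranbp3 were not called. The shares of all genes called in these settings are not given.

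In the smaller types fewer members were called. B-lineage cells, with 34 to 232 cells in a library, were lower for Rangrf (20.1, 68.4, 35.4 and 58.0 CPM, -0.97 ± 0.20, adjusted p = 0.000155), Ipo11 (20.1, 45.6, 40.1 and 40.7 CPM, -0.80 ± 0.20) and Ipo4 (20.1, 30.4, 21.2 and 20.9 CPM, -0.52 ± 0.20), beside 26.8% of all genes called. With thinned gates Ipo4 was not called there, and Nxf1 and Rcc1 were called higher. In control replicate 1 the B-lineage cells had a median of 621 UMIs. The highest values were those of Kpna2 (20.1, 7.60, 18.9 and 29.9 CPM, 0.60 ± 0.30), Tnpo2 (0.31 ± 0.18) and Kpna1 (0.29 ± 0.18), none of which passed. Monocyte or dendritic cells, with 43 to 59 cells in a library, were lower for Ran (914, 998, 1178 and 882 CPM, -0.57 ± 0.13, adjusted p = 0.00151), Ipo5 (-0.86 ± 0.24), Rangrf (-1.17 ± 0.30), Ipo8 (20.0, 9.60, 9.24 and 11.4 CPM, -1.46 ± 0.39), Ipo11 (-0.96 ± 0.33) and Xpo4 (0, 9.60, 9.24 and 22.8 CPM, -1.40 ± 0.48), beside 16.4%. Xpo4 rests there on 0, 1, 2 and 4 UMIs and Ipo11 on 0, 6, 15 and 2. With the gates applied to thinned cells none of the 6 was called, and Xpo4 was at 0.24, the opposite direction. Without copied barcodes Ipo7, Ranbp1 and Xpot were called lower in addition. That setting held 28, 3, 22 and 31 monocyte or dendritic and 7, 3, 76 and 229 B-lineage cells. Libraries with fewer than 20 such cells were left out of it, among them both controls for B-lineage cells. Lymphoid-primed cells were lower for Rangrf (65.2, 54.2, 77.5 and 82.4 CPM, -0.41 ± 0.13, adjusted p = 0.0294) beside 11.6% of all genes, and megakaryocyte-primed cells for Kpna3 (49.5, 49.3, 65.2 and 57.7 CPM, -0.41 ± 0.13, adjusted p = 0.0357) beside 12.7%. Without copied barcodes or with thinned gates neither of these last calls was made, nor was either without control replicate 2 or Nup358 knockout replicate 2. The 6 calls in monocyte or dendritic cells and the 3 in B-lineage cells became 1 each without Nup358 knockout replicate 2, where the share of all genes called is not given. In basophil or mast cells 0 members were called by edgeR or DESeq2 beside 1.79% of all genes, with 7 and 3 at an unadjusted p under 0.05, and 2 libraries with fewer than 20 such cells were left out of that comparison. Its lowest values were those of Ipo11 (-1.18 ± 0.42), Ipo9 (-1.15 ± 0.58) and Xpo7 (-1.08 ± 0.37).

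**Figure D3:**
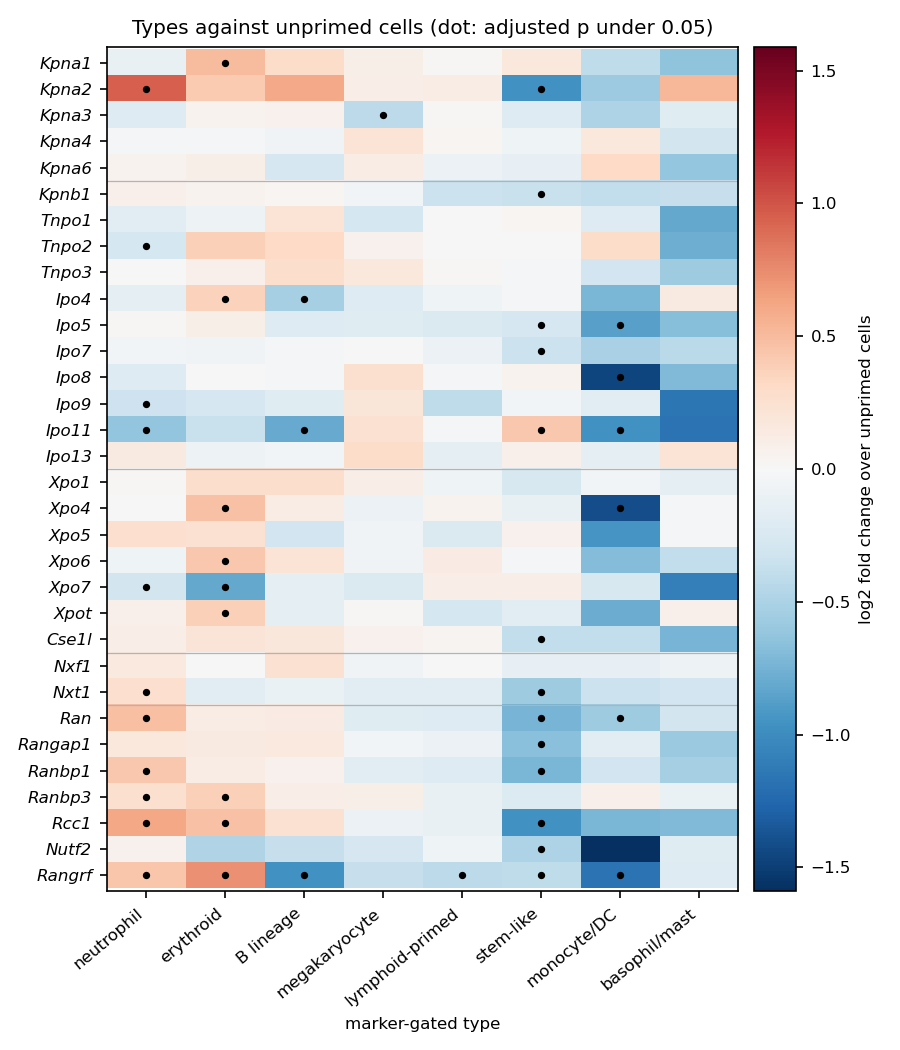
Log2 fold change over unprimed cells (color) for the 32 genes (rows) in 8 marker-gated types (columns), with a dot where the adjusted p was under 0.05. The stem-like column is blue at Ran, Rangap1, Ranbp1 and Rcc1 where the neutrophil column is red or pale, and Ipo11 has the opposite colors in these columns.

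Nup358 knockout and control libraries were compared first over all LSK cells. Kpnb1 and Tnpo1 of the import receptors and Xpot and Cse1l of the exportins were higher in the knockout libraries. Of the 32 genes 31 had a positive log2 fold change, beside 49.1% of all 13844 genes tested, and the median of the 32 was 0.39 while that of all genes was -0.01. In edgeR's quasi-likelihood test 4 members were higher and no member fell, beside 0.910% of all genes that were higher, and 19 members had an unadjusted p under 0.05. The 2 knockout libraries lay above both controls for 26 of the 32 members, beside 26.9% of all genes. The 6 that overlapped were Ipo13, Xpo6, Nxf1, Nxt1, Ranbp3 and Nutf2. With 2 libraries in a group, the adjusted p-values rest on a spread that edgeR shares between genes.

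Kpnb1 changed most. It was at 108 and 101 CPM in the control and 163 and 189.9 CPM in the Nup358 knockout libraries, a log2 fold change of 0.75 ± 0.12 (adjusted p = 0.0339). Tnpo1 was at 52.4 and 48.6 CPM in the control and 71.8 and 78.3 CPM in the Nup358 knockout libraries (0.57 ± 0.11, adjusted p = 0.0499). The groups did not overlap for either gene. Other members of the importin beta family that did not pass were Tnpo2 at 17.2 and 19.3 against 25.7 and 27.5 CPM (0.55 ± 0.12), Ipo7 at 89.96 and 86.3 against 127 and 120.1 CPM (0.49 ± 0.11), Ipo4 (0.44 ± 0.13), Ipo5 (0.40 ± 0.14), Ipo8 (0.39 ± 0.14), Ipo9 (0.39 ± 0.11), Ipo11 (0.27 ± 0.12), Tnpo3 (0.26 ± 0.11) and Ipo13 (0.19 ± 0.18). Among the adaptors Kpna3 was at 55.4 and 58.6 against 78.1 and 82.1 CPM (0.49 ± 0.11, adjusted p = 0.0581), and Kpna4, Kpna6 and Kpna1 had values of 0.42 ± 0.10, 0.40 ± 0.12 and 0.37 ± 0.12. Kpna2, the adaptor that differed most between cycle classes, was at 17.5 and 16.8 against 17.8 and 17.8 CPM (0.05 ± 0.12, adjusted p = 0.833). The 16 import transcripts together summed to 785, 735, 1017 and 1070.3 CPM and had a median change of 0.40.

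Of the exportins, Xpot was at 39.4 and 39.7 CPM in the control and 56.3 and 58.5 CPM in the Nup358 knockout libraries (0.54 ± 0.10, adjusted p = 0.04998), and Cse1l at 50.0 and 49.4 against 70.9 and 72.3 CPM (0.53 ± 0.10, adjusted p = 0.0496). The groups of both genes lay apart, and both adjusted p-values lie just under the threshold of 0.05. Xpo1 was at 85.2 and 80.5 against 113 and 129.8 CPM (0.55 ± 0.12, adjusted p = 0.0588) and did not pass. Xpo4, Xpo5, Xpo7 and Xpo6 had values of 0.42 ± 0.12, 0.30 ± 0.15, 0.29 ± 0.11 and 0.13 ± 0.14. The mRNA export pair had the smallest changes of the export receptors, Nxf1 at 169 and 146 against 156 and 180.1 CPM (0.10 ± 0.13) and Nxt1 at 117 and 97.4 against 101 and 110.1 CPM (-0.02 ± 0.13), with overlapping groups. In the Ran cycle no gene passed. Rangap1 was at 121 and 82.2 against 138 and 159 CPM (0.55 ± 0.19, adjusted p = 0.153) and Rcc1 at 52.2 and 49.3 against 65.4 and 73.1 CPM (0.45 ± 0.11, adjusted p = 0.0784). Ran, Ranbp1, Nutf2, Rangrf and Ranbp3 had values of 0.23 ± 0.14, 0.27 ± 0.12, 0.27 ± 0.18, 0.20 ± 0.13 and 0.09 ± 0.14, the last at 35.8 and 29.1 against 32.9 and 36.2 CPM.

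**Figure D4:**
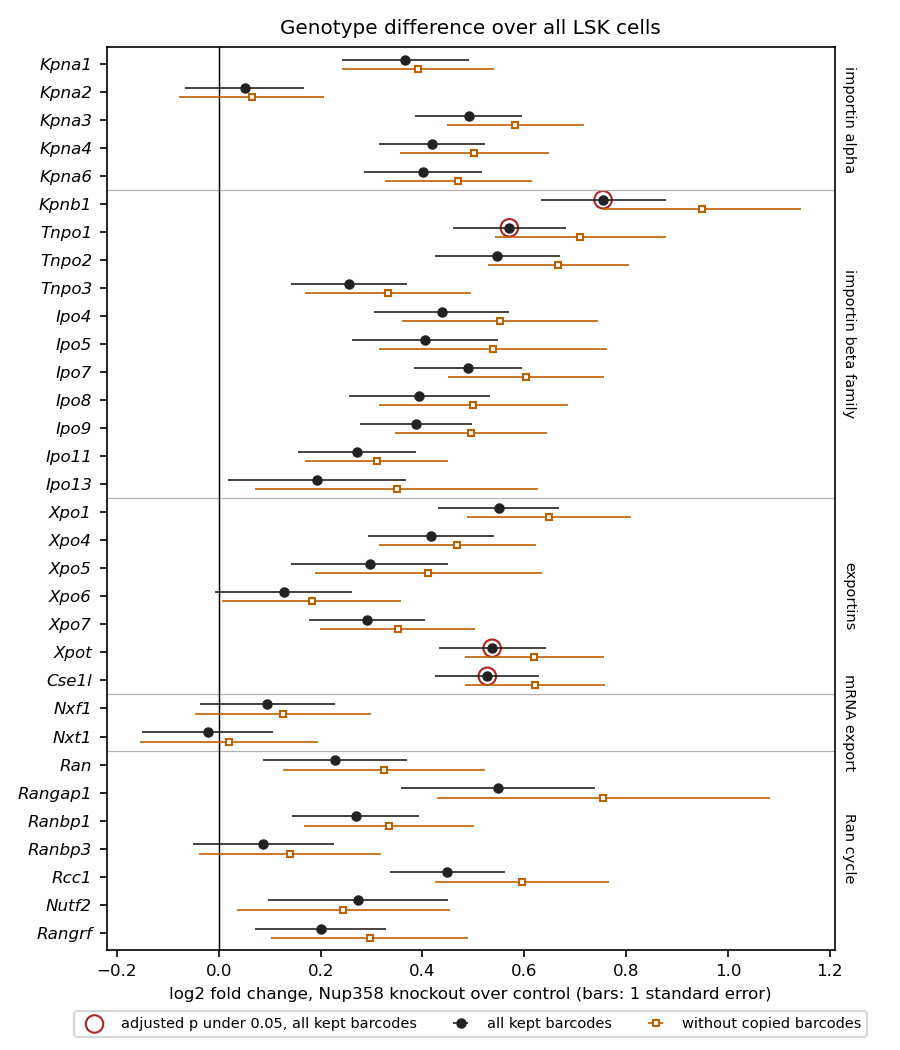
Log2 fold change of Nup358 knockout over control libraries (x axis) for the 32 genes over all LSK cells, with all kept barcodes (filled circles) and without copied barcodes (open squares), bars of 1 standard error, and rings around the 4 genes past the threshold with all kept barcodes. With all kept barcodes every gene but Nxt1 lies to the right of 0, and leaving out copied barcodes moves most values further right with wider bars.

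The 4 calls depend on which cells and libraries enter. Without copied barcodes 0 members passed in edgeR's test, beside 1.37% of all genes that were higher, although all 32 values were positive with a median of 0.47 and 17 had an unadjusted p under 0.05 (Kpnb1 0.95 ± 0.20). The number called was 13 without control replicate 1 (beside 2.51% of all genes that were higher), 13 without control replicate 2 (7.43%), 1 without Nup358 knockout replicate 1 (1.41%) and 0 without Nup358 knockout replicate 2 (0.874%), and 11 by DESeq2 with all libraries (2.41%). In unprimed cells of the neither class none of 26 members was called, 2 had an unadjusted p under 0.05, and 18 values were positive, while Cse1l was at -0.045. That fit held 6891 genes and rested on 279, 91, 53 and 26 cells. The share of all genes called in it is not given. In cells of 5000 to 20000 UMIs, a restriction added after the data were seen, 0 of 12866 genes were called in edgeR's test, DESeq2 was not run, 7 members had an unadjusted p under 0.05 and 30 of 32 values were positive (median 0.43, Kpnb1 0.91 ± 0.29).

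Marker totals were read beside the genotypes. The 7 neutrophil markers summed to 7019, 4261, 1407 and 803 CPM with none at 0 and the 6 markers of mature neutrophils to 323, 1630, 174 and 213 CPM, both lower in the knockout libraries without overlap. The 5 red cell genes summed to 132, 1055, 197 and 235 CPM, where control replicate 2 stood apart and the groups overlapped. The 9 B-lineage markers summed to 50.7, 97.1, 156 and 439 CPM and the 4 plasma cell markers to 125, 270, 613 and 438 CPM. The 43 S phase genes summed to 3814, 3438, 4032 and 4047 CPM and the 53 G2/M phase genes to 7741, 6275, 7152 and 8163 CPM, the latter with overlapping groups. Their part in the result over all LSK cells was not tested. In unprimed cells the neutrophil markers still summed to 1770, 982, 982 and 625 CPM, and the median change of the members was 0.39. The part of the markers in that value was not tested either. A lower level over all cells of a library can come from fewer cells of a type or less RNA per cell, and these cannot be told apart there.

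Within unprimed cells 7 members were higher in Nup358 knockout and no member fell, beside 1.40% of 13108 genes that were higher, and all 32 values were positive. Kpnb1 was at 103 and 109 CPM in the control and 171 and 196 CPM in the Nup358 knockout libraries (0.79 ± 0.11, adjusted p = 0.0223). The others were Xpot (36.1 and 40.8 against 59.2 and 60.7 CPM, 0.64 ± 0.11, adjusted p = 0.0323), Rcc1 (43.5 and 47.9 against 67.0 and 75.1 CPM, 0.64 ± 0.12, adjusted p = 0.0346), Cse1l (48.9 and 50.5 against 72.5 and 74.3 CPM, 0.56 ± 0.10), Tnpo1 (52.1 and 52.2 against 73.9 and 80.0 CPM, 0.56 ± 0.11), Xpo1 (84.9 and 82.9 against 114 and 133 CPM, 0.55 ± 0.12, adjusted p = 0.043) and Ipo7 (90.7 and 92.9 against 132 and 126 CPM, 0.49 ± 0.10). The lowest values were those of Nxt1 (113 and 97.8 against 104 and 116 CPM, 0.07 ± 0.12), Nxf1 (0.10 ± 0.13) and Xpo6 (0.15 ± 0.12). Both knockout libraries lay above both controls for 29 of the 32 members, beside 28.0% of all genes, the exceptions being Nxf1, Nxt1 and Ranbp3. Without copied barcodes Kpnb1, Xpot, Rcc1 and Cse1l were called, beside 0.857% of all genes that were higher. The number called was 13 by DESeq2 (beside 2.45%), 18 without control replicate 1 (5.39%), 20 without control replicate 2 (11.8%), 1 without Nup358 knockout replicate 1 (0.194%) and 0 without Nup358 knockout replicate 2 (0.186%). In unprimed cells of 5000 to 20000 UMIs edgeR called 0 members, with 13 at an unadjusted p under 0.05 and 31 of 32 values positive. The share of the 12306 genes tested that was called there is not given.

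Stem-like cells showed the most calls, 9 members higher and no member lower, beside 2.40% of 10218 genes that were higher, and 4 of the 9 belong to the Ran cycle. Xpo1 was at 67.3 and 56.2 CPM in the control and 133 and 119.8 CPM in the Nup358 knockout libraries, a log2 fold change of 1.01 ± 0.18 (adjusted p = 0.00804). Ranbp1 was at 353 and 315 against 579 and 626 CPM (0.85 ± 0.17, adjusted p = 0.0148) and Ran at 782 and 640.2 against 1069 and 1293 CPM (0.73 ± 0.19, adjusted p = 0.0422). Ran, Ranbp1 and Xpo1 work together in export, since Ran-GTP enters the export complex and Ranbp1 helps to dissolve it. Rangap1 was at 76.8 and 38.3 against 102 and 130.3 CPM (0.96 ± 0.26, adjusted p = 0.047) and Rcc1 at 23.2 and 19.8 against 40.5 and 43.8 CPM (0.95 ± 0.22, adjusted p = 0.0273). Of the import side, Kpnb1 (101 and 69.2 against 146 and 166 CPM, 0.86 ± 0.19), Ipo5 (81.7 and 50.7 against 121 and 131 CPM, 0.90 ± 0.21) and Ipo7 (79.9 and 60.6 against 125 and 107 CPM, 0.70 ± 0.19) were higher, and of the exportins Cse1l (36.1 and 35.2 against 58.6 and 69.9 CPM, 0.85 ± 0.19) besides Xpo1. None of these 9 genes overlapped between the genotypes. The lowest values were those of Ipo11 (91.1 and 107 against 93.3 and 95.2 CPM, -0.06 ± 0.17), Nxf1 (156 and 150.2 against 153 and 172 CPM, 0.09 ± 0.16) and Xpo6 (0.10 ± 0.22). The number called was 5 by DESeq2 (beside 0.969% of all genes that were higher), 12 without control replicate 1 (7.10%), 9 without control replicate 2 (5.59%), 7 without Nup358 knockout replicate 1 (1.63%) and 1 without Nup358 knockout replicate 2 (0.300%). Without copied barcodes it was 7 (1.97%), and Ipo7 (adjusted p = 0.0577) and Rangap1 (adjusted p = 0.0717) did not pass. Median UMIs of stem-like cells were 3315 and 7413 in the control and 9089 and 9329 in the knockout libraries. The 8 stem cell markers summed to 1519 and 1583 against 1395 and 1304 CPM within the gate. Genotypes were not compared with gates on thinned cells, and the part of these differences in the calls was not tested.

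The genotype effect was larger in stem-like than in unprimed cells for 4 members by a test of the difference itself, beside 2.66% of 12532 genes that were higher by this test. The differences in log2 fold change were 0.48 ± 0.09 for Ranbp1 (adjusted p = 0.000254), 0.41 ± 0.08 for Ran (adjusted p = 0.000909), 0.47 ± 0.13 for Xpo1 (adjusted p = 0.021) and 0.45 ± 0.13 for Ipo5 (adjusted p = 0.0245). Without copied barcodes, a setting added after the data were seen, Ranbp1 (0.45 ± 0.08) and Ran (0.36 ± 0.07) passed and Xpo1 (0.41 ± 0.13) and Ipo5 (0.38 ± 0.12) did not. Cycle state moved with genotype in these cells, since 18.6% and 21.3% of control but 6.13% and 6.06% of knockout stem-like cells were in the neither class. In stem-like cells of the S and G2/M classes, a restriction added later, edgeR called 0 members, with 10 at an unadjusted p under 0.05, 31 of 32 values positive and a median of 0.37, and DESeq2 was not run there. Xpo1 was at 84.1, 71.6, 135 and 123 CPM in them (0.69 ± 0.17) and Ranbp1 at 435, 493, 605 and 677 CPM (0.47 ± 0.17). In stem-like cells outside the cycling classes 2 members were called, Xpo1 at 53.4, 47.8, 125 and 113 CPM (1.22 ± 0.24) and Ranbp1 at 287, 233, 537 and 458 CPM (0.93 ± 0.21). The S and G2/M fit held 9453 genes and the other 8383. The share of all genes called in these fits is not given, so the counts of members have no background beside them.

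**Figure D5:**
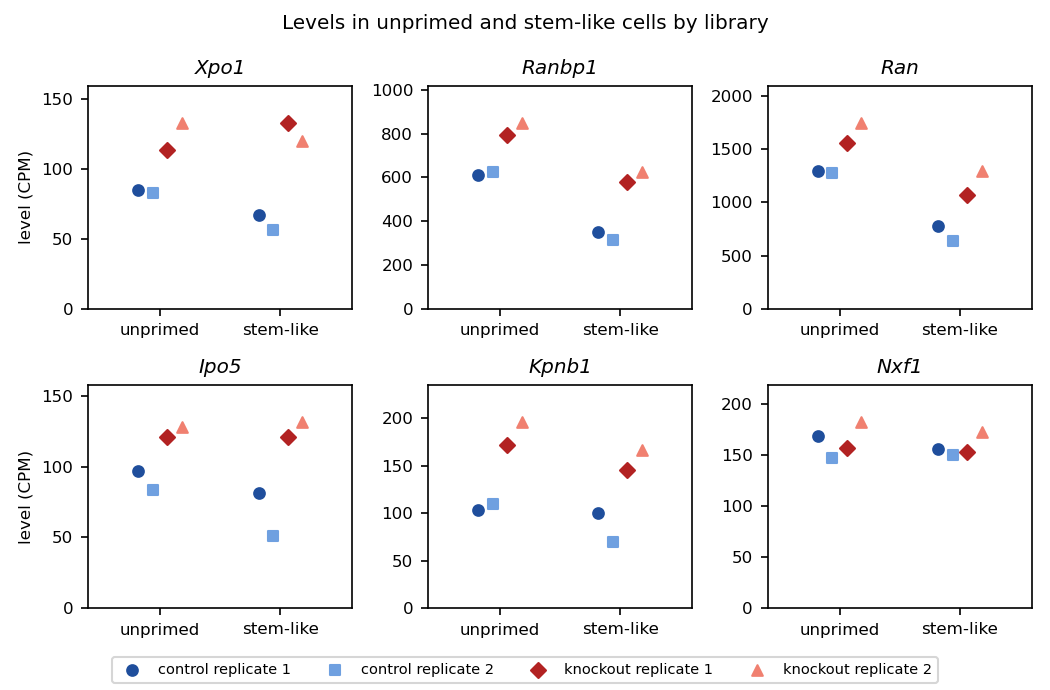
Level in CPM (y axis from 0) of 6 genes in unprimed and stem-like cells of each library. Both knockout libraries lie above both controls in stem-like cells for Xpo1, Ranbp1, Ran, Ipo5 and Kpnb1, and the groups overlap for Nxf1.

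In lymphoid-primed cells 2 members were higher, beside 0.556% of all genes that were. Kpnb1 was at 80.4 and 74.5 against 125 and 176 CPM (0.98 ± 0.20, adjusted p = 0.0358) and Rcc1 at 40.2 and 28.6 against 65.9 and 77.0 CPM (1.10 ± 0.23, adjusted p = 0.0384). The value of Tnpo2 was 0.92 ± 0.29 and did not pass, and Nutf2 was lowest (-0.40 ± 0.35). In erythroid-primed cells Kpna4 was higher, at 62.0 and 48.0 against 132 and 112 CPM (1.07 ± 0.25, adjusted p = 0.039), beside 0.252% of all genes, and it did not pass without copied barcodes. Xpo7, which was low in these cells, had a value of 1.15 ± 0.36 and did not pass. For the 3 called genes the groups did not overlap, and DESeq2 called none of them. In neutrophil-primed cells edgeR called 0 members (13 at an unadjusted p under 0.05) and DESeq2 1, beside 0.211% of all genes in edgeR's test, and 28 of 32 values were positive with a median of 0.38, from Kpna2 (-0.31 ± 0.23) to Kpnb1 (109 and 95.5 against 151 and 204 CPM, 0.79 ± 0.17). Without copied barcodes Kpnb1 passed there (1.00 ± 0.20, adjusted p = 0.0334). In megakaryocyte-primed cells both tools called 0 members beside 0.188% of all genes, with 7 at an unadjusted p under 0.05 in edgeR's test and 1 in DESeq2. In monocyte or dendritic cells both called 0 beside 0.225%, with 3 and 0 at an unadjusted p under 0.05 among the 11 members that passed the filter. In B-lineage cells both called 0 of 23 members and edgeR 0% of all 4185 genes, no member had an unadjusted p under 0.05 and 12 values were positive. Of the B-lineage cells 7 of 34, 3 of 106, 76 of 139 and 229 of 232 were not copied barcodes. Their control side thus rests mostly on copied ones. Not copied were also 28 of 43, 3 of 59, 22 of 55 and 31 of 46 monocyte or dendritic cells. For neutrophil-primed cells it was 1891 of 1990, 152 of 1226, 48 of 462 and 51 of 222. Most of these barcodes in control replicate 2 and in both knockout libraries were thus copied. The calls in lymphoid-primed and erythroid-primed cells depended on single libraries, since leaving out 1 leaves 1 library in a group. Whether the effect differs between these types and unprimed cells was not tested.

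The genotypes were also compared at a given cycle state. In the G2/M class Kpnb1 (111 and 113 against 169.8 and 197 CPM, 0.71 ± 0.12, adjusted p = 0.0331) and Xpot (38.9 and 39.2 against 56.2 and 58.3 CPM, 0.55 ± 0.11, adjusted p = 0.0443) were higher in Nup358 knockout, beside 0.566% of all genes, and 30 of 32 values were positive with a median of 0.35. Tnpo2 (0.57 ± 0.13), Nxt1 (-0.15 ± 0.13) and Kpna2 (25.1 and 29.2 against 24.0 and 22.2 CPM, -0.23 ± 0.14) did not pass. Without copied barcodes Xpot did not pass in G2/M (0.65 ± 0.14, adjusted p = 0.0526) and Tnpo2 did (0.71 ± 0.14, adjusted p = 0.0485). In the S class Kpnb1 was higher (112 and 108 against 164 and 179 CPM, 0.64 ± 0.12, adjusted p = 0.0366), beside 0.779%, with 30 positive values and a median of 0.32, and Tnpo1 (56.3 and 48.0 against 77.0 and 87.8 CPM, 0.65 ± 0.14, adjusted p = 0.0522) did not pass. Without copied barcodes Tnpo1 (0.73 ± 0.17, adjusted p = 0.0430) and Xpo1 (0.63 ± 0.15, adjusted p = 0.0439) were higher in S as well. In the neither class Xpo1 was at 48.3 and 40.3 against 81.3 and 108 CPM (1.07 ± 0.26, adjusted p = 0.0262) and was the only member called, beside 3.81% of all genes that were higher, and 22 of the 30 members tested were positive with a median of 0.14. DESeq2 did not call Xpo1 there. The make-up of this class differed between the genotypes, as given below, and its part in the value of Xpo1 was not tested. Over the 3 classes together 4 calls were made. With a library left out, which leaves 1 library in a group, their number rose or fell with the library. The groups of Kpnb1 and Xpo1 lay apart in each class where they were called.

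For 3 members the genotype effect differed between the G2/M and neither classes in a test of the difference, beside 1.79% of 12191 genes that were higher by it. Rangrf was at 76.1, 73.2, 43.7 and 35.5 CPM in the neither class and at 99.9, 80.4, 102 and 109.9 CPM in G2/M, so that the knockout libraries lay below the controls in one class and above them in the other. The difference of its log2 fold changes was 1.17 ± 0.25 (adjusted p = 0.0029). Ipo4 was at 30.3, 16.1, 13.3 and 7.61 CPM in the neither class, from 53, 26, 7 and 3 UMIs, and 23.8, 21.1, 31.6 and 32.4 CPM in G2/M (1.66 ± 0.46, adjusted p = 0.0259). Ipo11 was at 72.1, 74.4, 45.6 and 66.0 CPM in the neither class and 53.0, 67.7, 75.8 and 74.4 CPM in G2/M (0.80 ± 0.24, adjusted p = 0.0467). All 3 were called without copied barcodes too. The make-up of the neither class differed between the genotypes, with B-lineage cells at 0.206% and 0.602% of it in the controls and 22.8% and 22.1% in the knockout libraries. B-lineage cells were lower than unprimed cells for all 3 genes when cells of every cycle state were taken. Within the neither class only Nup358 knockout replicate 1 had at least 20 of them (26). The part of this make-up in the 3 differences was not tested. In unprimed cells only, a restriction added after the data were seen, the difference was 1.18 ± 0.34 for Rangrf (adjusted p = 0.0359), and Ipo4 (1.55 ± 0.65) and Ipo11 (0.39 ± 0.34) did not pass. The neither class held 279, 91, 53 and 26 unprimed cells, so the knockout side of this restriction rests on few cells.

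Other transport factors, a list of 38 genes that were matched in the tables (mRNA export adaptors and helicases, cap-binding proteins and further Ran-binding proteins), were read beside the 32. Over all LSK cells 34 were tested, 1 was higher in Nup358 knockout, beside 0.910% of all genes, and their median change was 0.09. That gene was Ddx39, an RNA helicase of mRNA export (0.74 ± 0.11, adjusted p = 0.0288). In stem-like cells 3 of 33 were higher in Nup358 knockout, beside 2.40% of all genes, with a median of 0.17. They were Ddx39 (1.22 ± 0.17), the cap-binding protein Ncbp1 (0.98 ± 0.20) and the export adaptor Alyref (0.79 ± 0.20). In the G2/M class 19 of 33 were higher than in the neither class and none fell (median 0.48), beside 24.8% of all genes that were higher. The largest were Alyref (1.51 ± 0.12), Ddx39 (1.47 ± 0.14) and Ncbp1 (1.03 ± 0.09). In stem-like against unprimed cells 12 of 32 were lower and 1 higher, beside 37.3% of all genes called in either direction, with Ddx39 at -0.91 ± 0.14.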

How the data were processed

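LSK cells of 4 libraries were profiled by 10x Genomics 3′ single-cell RNA sequencing. The deposited values are raw UMI counts per gene and barcode, made by the authors with Cell Ranger 3.1 against GRCm38 (per the submitters' processing notes). The annotation and strand setting are not given in the sources used here. Depth ranged from 25111828 to 60330267 UMIs per library.

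Barcodes entered with 200 or more genes and no more than 10% of UMIs from mitochondrial genes. Counts were summed per library over all kept cells or over a marker-gated type or cycle class. Comparisons of types with unprimed cells took libraries with at least 20 cells of the type. Genotypes were compared within types that had at least 20 cells in each library with all kept barcodes. That limit was not applied again in other settings of the genotype comparisons, nor to cycle classes. edgeR 4.0.16 in R 4.3.3 (TMM scaling, filterByExpr, quasi-likelihood test, Benjamini-Hochberg adjustment over all genes, threshold 0.05) compared Nup358 knockout with control, classes and types with a library term, and differences of genotype effects. The scripts were tested on simulated data. DESeq2 1.42.0, other filters, blocks and left-out libraries served as alternatives. Promoters came from RefSeq GRCm38.p6, and 3′ ends were compared with BLAST 2.17.0+.

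Deviations of same-numbered libraries from their genotype means were not correlated (Pearson r 0.00298 across 13844 genes). With 2 libraries in a group this cannot settle whether the replicate numbers pair the libraries. The 32 members, the marker lists and the gates were chosen with earlier results of these data known. Members past the threshold in the genotype, G2/M or S comparison, and the 3 largest rises and falls in each comparison, were to be given with library values, the others by range and count. Each library holds pooled marrows, so p-values of the genotype comparisons measure the spread between pools, as far as copied barcodes leave the pools separate. Those of classes, types and differences of genotype effects come from fits with library terms. They measure how much the differences between classes vary from library to library.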

Additional observations from a re-analysis of the deposited data

Results flagged for a closer look

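The genotype effect differed between cell classes for 7 members in a test of the difference itself. Between the G2/M and neither classes the difference in log2 fold change (knockout over control) was 1.17 for Rangrf, 1.66 for Ipo4 and 0.80 for Ipo11, so the effect was more positive in G2/M for each. In unprimed cells only, Rangrf remained past the threshold at 1.18, where the neither class held 53 and 26 cells of Nup358 knockout replicates 1 and 2. Between stem-like and unprimed cells the difference was 0.48 for Ranbp1, 0.41 for Ran, 0.47 for Xpo1 and 0.45 for Ipo5, and without copied barcodes Ranbp1 (0.45) and Ran (0.36) passed. The share of neither-class cells among stem-like cells also differed between the genotypes, and its part in these differences was not tested.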

How the results depend on the processing

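With 2 libraries a group, counts of calls moved more than directions did. Where a library was left out, the share of all genes called moved too, as given above for all LSK, unprimed and stem-like cells. For the blocks, the setting with no filter, the types together and the cycle classes that share is not given. Nor is it given for thinned gates or for single types against unprimed cells with a library left out. Those counts of members cannot be set against all genes. Over all LSK cells the 4 calls became 11 with DESeq2, 13 with no filter on low counts, 8 with a depth block, 1 with at least 500 genes per cell, and 0 without copied barcodes, in cells of 5000 to 20000 UMIs and in unprimed neither-class cells, and 0 to 13 with a library left out. With a replicate block 3 were called there, and whether the replicate numbers pair the libraries is not settled. Within types the 19 calls became 34 with the depth block, 37 with no filter and 1 to 45 with a library left out. In unprimed cells the 7 calls became 13 with DESeq2, 16 with the depth block, 17 with no filter, 1 with the replicate block, 4 without copied barcodes, 0 in cells of 5000 to 20000 UMIs and 0 to 20 with a library left out. In stem-like cells the 9 became 5 with DESeq2, 0 in S and G2/M cells, 2 in the remaining cells and 1 to 12 with a library left out. Over cycle classes the 4 became 9 with DESeq2, 11 with the depth block, 16 with no filter, 7 with the replicate block and 0 to 22 with a library left out. The 9 calls of DESeq2 over cycle classes did not include Xpo1 in the neither class. Of the differences between classes, 1 of 3 was called in unprimed cells (G2/M against neither) and 2 of 4 without copied barcodes (stem-like against unprimed). The 13 calls in stem-like against unprimed cells became 5 with thinned gates and 0 in the neither class, where only the control libraries had 20 stem-like cells. The 6 calls in monocyte or dendritic cells became 0 with thinned gates. With a library left out, types gave 28 to 41 calls in place of 44, neutrophil-primed 7 to 9 and erythroid-primed 3 to 9. The settings with thinned gates or the neither class cover fewer types and give no total. The calls of cycle classes moved by less than 1.5 times.

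Some signs turned, those of the called genes Cse1l, Xpo4 and Kpnb1 among them. Over all LSK cells Kpna2 was at -0.33 in cells of 5000 to 20000 UMIs, and in unprimed neither-class cells Cse1l was at -0.045, Ipo11 at -0.20, Ipo7 at -0.15, Kpna1 at -0.10, Kpna4 at -0.030, Nxf1 at -0.38 and Rangrf at -0.73. Nxt1 was at 0.020 without copied barcodes, and with a library left out from -0.15 to 0.12, Ipo13 from -0.011 to 0.45, Nxf1 from -0.012 to 0.21, Ranbp3 from -0.056 to 0.25 and Xpo6 from -0.027 to 0.30. In G2/M Ipo11 was at 0.020 and Ipo8 at 0.044 with no filter, Ipo11 at 0.14 in unprimed cells, and with a library left out Ipo11 from -0.21 to 0.11 and Ipo8 from -0.11 to 0.13. Kpna6 was at 0.0025 in S with no filter, Xpo4 at 0.24 in monocyte or dendritic cells with thinned gates, and Kpnb1 at 0.0014 in stem-like neither-class cells. The causes were not tested.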
